A study of Danio rerio with 21 samples.

Results

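The coatomer is the coat of COPI vesicles, and the 9 zebrafish genes that encode its subunits were followed in liver RNA-seq from larvae at 7 days post fertilization (dpf). The genes were chosen by name, as subunits of the complex, and were found among the 32520 gene identifiers of the count files. They encode the subunits alpha (*copa*), beta (*copb1*), beta-prime (*copb2*), gamma (*copg2*), delta (*arcn1a* and *arcn1b*), epsilon (*cope*) and zeta (*copz1* and *copz2*). All 9 passed the filter on low counts that left 31100 genes tested, and all 9 were among the 5200 genes that averaged 10 CPM or more. CPM are reads of a gene scaled by library size multiplied by a scaling factor of the library, not by gene length. A level in CPM is therefore not the share of a gene in the reads of its library.

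COPI vesicles carry proteins backwards, from the Golgi to the endoplasmic reticulum (ER) and between Golgi cisternae, while COPII vesicles carry newly made proteins out of the ER. The small GTPase Arf1 recruits coatomer to Golgi membranes as a preformed complex. Alpha, beta-prime and epsilon form an outer layer that also reads retrieval signals on cargo, and beta, gamma, delta and zeta form an inner layer that resembles a clathrin adaptor. In a liver that secretes large amounts of plasma protein, retrieval returns ER residents, cargo receptors and SNAREs for further rounds of export.

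Livers were dissected from WT larvae, from *sec31anju221* larvae and from 5 double mutant lines that all carry *sec31anju221*, each as 3 libraries, which makes 21. *sec31anju221* is a gene-trap allele of *sec31a*, a subunit of the outer COPII coat, in which an intronic transposon gives a fusion protein without the C-terminal end. In the double mutants a second gene was disrupted with CRISPR/Cas9: *xbp1* (*xbp1-/-;sec31anju221*), *srebf1* (*srebf1-/-;sec31anju221*), *srebf2* (*srebf2-/-;sec31anju221*), *atf6* (*atf6-/-;sec31anju221*), or both *atf4a* and *atf4b* (*atf4a-/-;atf4b-/-;sec31anju221*). Xbp1, Atf6 and the Atf4 proteins are transcription factors of the ER stress response, and Srebf1 and Srebf2 are sterol-regulated factors of lipid synthesis. The lines are called here by the second gene, and the last set by its label, *atf4a/b*. The mutations are present in every cell of the larva, and the number of livers in each library is not given in the sources used here.

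The disrupted genes were read first. *sec31a* had a mean of 19.5 CPM in WT and 2.04 to 4.95 CPM in the 6 mutant genotypes. *xbp1* had 104 CPM in *sec31anju221* and 0.384 CPM in the *xbp1* line, *atf6* had 328 and 4.39 CPM in the *atf6* line, and *srebf2* had 4.45 and 1.001 CPM in the *srebf2* line. *srebf1* was low everywhere, at 1.58 CPM in *sec31anju221* and 0.457 CPM in the *srebf1* line. *atf4a* and *atf4b* were higher in the libraries labelled *atf4a/b*, with 12.6 and 132 CPM against 6.41 and 88.4 CPM in *sec31anju221*. These levels go against the label, since the knockout alleles are described as deletions that leave no transcript detectable by quantitative PCR. Every direction drawn from the libraries labelled *atf4a/b* below rests on that label.

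Totals ran from 9608400 to 11666806 counts in the *xbp1*, *atf6* and *atf4a/b* libraries and from 18918025 to 23095746 in the others. The 3 libraries of a genotype differed by little more than read sampling: over genes with at least 20 counts the variance was 1.76 to 1.87 times the mean. For the coatomer genes the mean ratio was 0.878 to 3.29, where a 10% difference between libraries would have given ratios of at least 7.66. The study describes its experiments in general as biologically replicated, but the labels do not say that these libraries came from separate pools of larvae. On the measured spread the 3 libraries of a genotype were counted as 1 sample, their range describes the precision of sequencing, and a difference between genotypes has no replicate check and no p-value. A gene is called higher or lower when it was past 2-fold (log2 fold change beyond 1 or -1).

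The lines of lower depth also stood apart in other ways, and the part of depth in the results below was not tested. In the *atf6*, *xbp1* and *atf4a/b* libraries 21674 to 23458 genes were at or above 1 CPM, against 11627 to 15433 in the others. For this count alone, CPM were taken on the library total without the scaling factor. The summed level of 6 hepatocyte markers, all detected in every genotype, was 600000 to 613200 CPM in WT, 159500 to 163900 in *sec31anju221*, 245600 to 293000 in the *srebf1* and *srebf2* lines, and 47060 to 78170 in the 3 sets with more detected genes. Scaling factors (TMM, trimmed mean of M-values) taken from the genes of at least 10 CPM, in place of all genes tested, moved the median log2 fold change of all genes by 1.24 in the *xbp1* line, 1.497 in the *atf6* line and 1.27 in the *atf4a/b* libraries, each against *sec31anju221*. In the other comparisons this shift was 0.10 (*sec31anju221* against WT), -0.10 (*srebf1*) and -0.20 (*srebf2*). For the *xbp1*, *atf6* and *atf4a/b* comparisons the log2 fold change under the second scaling is given beside the first, while levels in CPM are under the first. The median log2 fold change of the 6 hepatocyte markers against *sec31anju221* was -1.295 and -0.04 under the 2 scalings in the *xbp1* line. It was -0.84 and 0.68 in the *atf6* line, and -0.54 and 0.745 in the *atf4a/b* libraries. Under the first scaling it was 1.45 in the *srebf1* line and 2.32 in the *srebf2* line. In *sec31anju221* against WT the median of these markers was -1.745. The marker *apoa2* gave 28.0 to 28.3% of the counts in WT, 11.3 to 11.7% in *sec31anju221* and 8.54 to 15.7% in the double mutants. The part of these marker differences in the results below was not tested. In bulk tissue, fewer cells of a type and less RNA per cell cannot be told apart.

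The first comparison asked how the coatomer genes differed between *sec31anju221* and WT. In *sec31anju221* against WT, 8 of the 9 were called higher and none lower, with a median log2 fold change of 2.14. Of all genes tested, 21.4% were called higher, and of the genes of at least 10 CPM 16% were (18% under the second scaling). The median was 0.18 over all genes tested and -0.11 over the genes of at least 10 CPM. The same 8 genes were in the top 520 of the 5200 genes of at least 10 CPM when these were ranked by fold change, and *copb2* and *arcn1a* were in the top 52.

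**Figure D1:**
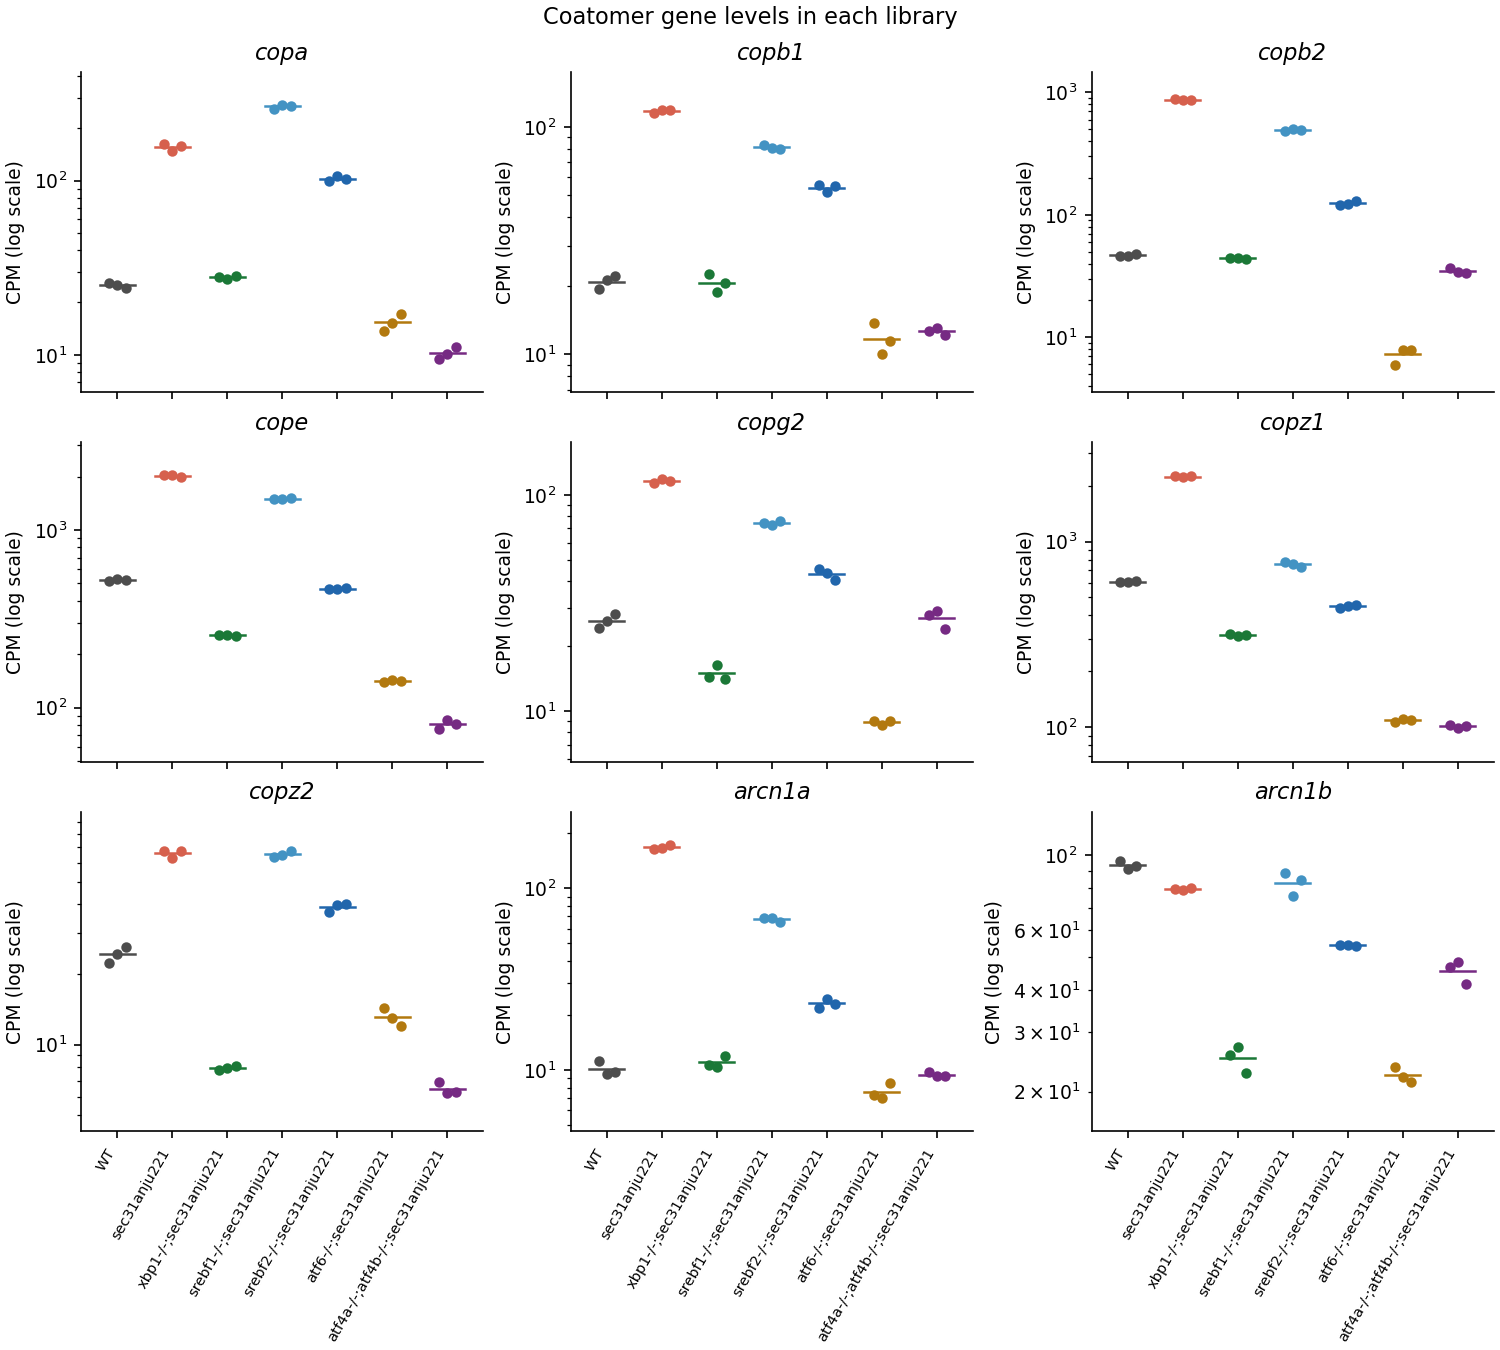
Level of each coatomer gene in CPM (log axis, own range for each gene) in the 3 libraries (points) of the 7 genotypes, with their mean (line). Under this scaling (factors from all genes tested) 7 of the 9 genes had their highest mean in sec31anju221, copa in the srebf1 line and arcn1b in WT. For copz2, counted among the 7, the libraries of sec31anju221 and the srebf1 line overlapped.

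*copb2*, which encodes the beta-prime subunit that binds dilysine retrieval signals, changed most. Its level was 45.9, 46.4 and 47.5 CPM in the 3 WT libraries and 875, 858 and 868 CPM in the 3 *sec31anju221* libraries. The groups were far apart, and the difference was 18.6-fold (log2 fold change 4.22, rank 28 of 5200). *arcn1a*, a gene for the delta subunit of the inner layer, had 11.3, 9.50 and 9.72 CPM in WT and 165, 167 and 173 CPM in *sec31anju221*. This was 16.5-fold higher (log2 fold change 4.05, rank 34).

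The paralog of *arcn1a* changed least. *arcn1b* had 95.9, 91.2 and 93.2 CPM in WT and 79.5, 79.2 and 79.97 CPM in *sec31anju221*. The libraries did not overlap, but the log2 fold change was -0.23 (rank 2864 of 5200), short of 2-fold in either direction.

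The other outer-layer genes lay between these extremes. *copa*, whose product also binds dilysine signals, was at 24.3 to 26.04 CPM in WT and 149 to 161 CPM in *sec31anju221* (log2 fold change 2.63, rank 120). *cope*, which encodes the epsilon subunit that stabilizes alpha, was at 519 to 530 and 2001 to 2042 CPM (log2 fold change 1.95, rank 257). Within the outer layer, *copb2* therefore differed from its partners *copa* and *cope* by more than 1.5 on the log2 scale.

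In the inner layer, *copb1* was at 19.3 to 22.1 CPM in WT and 116 to 118 CPM in *sec31anju221* (log2 fold change 2.49, rank 140). *copg2*, for the gamma subunit that contacts Arf1 and p24 cargo tails, was at 24.3 to 28.1 and 113 to 118 CPM (log2 fold change 2.14, rank 204). The zeta genes rose least among the 8, *copz1* from 607 to 612 CPM to 2221 to 2267 CPM (log2 fold change 1.88, rank 278) and *copz2* from 22.4 to 26.2 CPM to 63.2 to 67.8 CPM (log2 fold change 1.44, rank 478). No library of WT overlapped a library of *sec31anju221* for any member, *arcn1b* at -0.23 included. The libraries of a genotype differed by little more than read sampling, so small differences also separate them. The share of all genes without overlap was not computed, and the lack of overlap is not read as a result about the members. The 9 log2 fold changes spanned 4.45, a width that no scaling can alter.

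The remaining 5 comparisons asked how these levels differed in the lines labelled with a second disrupted gene, and each set a double mutant against *sec31anju221*. They share the *sec31anju221* libraries with each other and with the comparison above, so a gene that is high in *sec31anju221* tends to be lower in all of them, and the values are set side by side without a measure of their likeness.

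**Figure D2:**
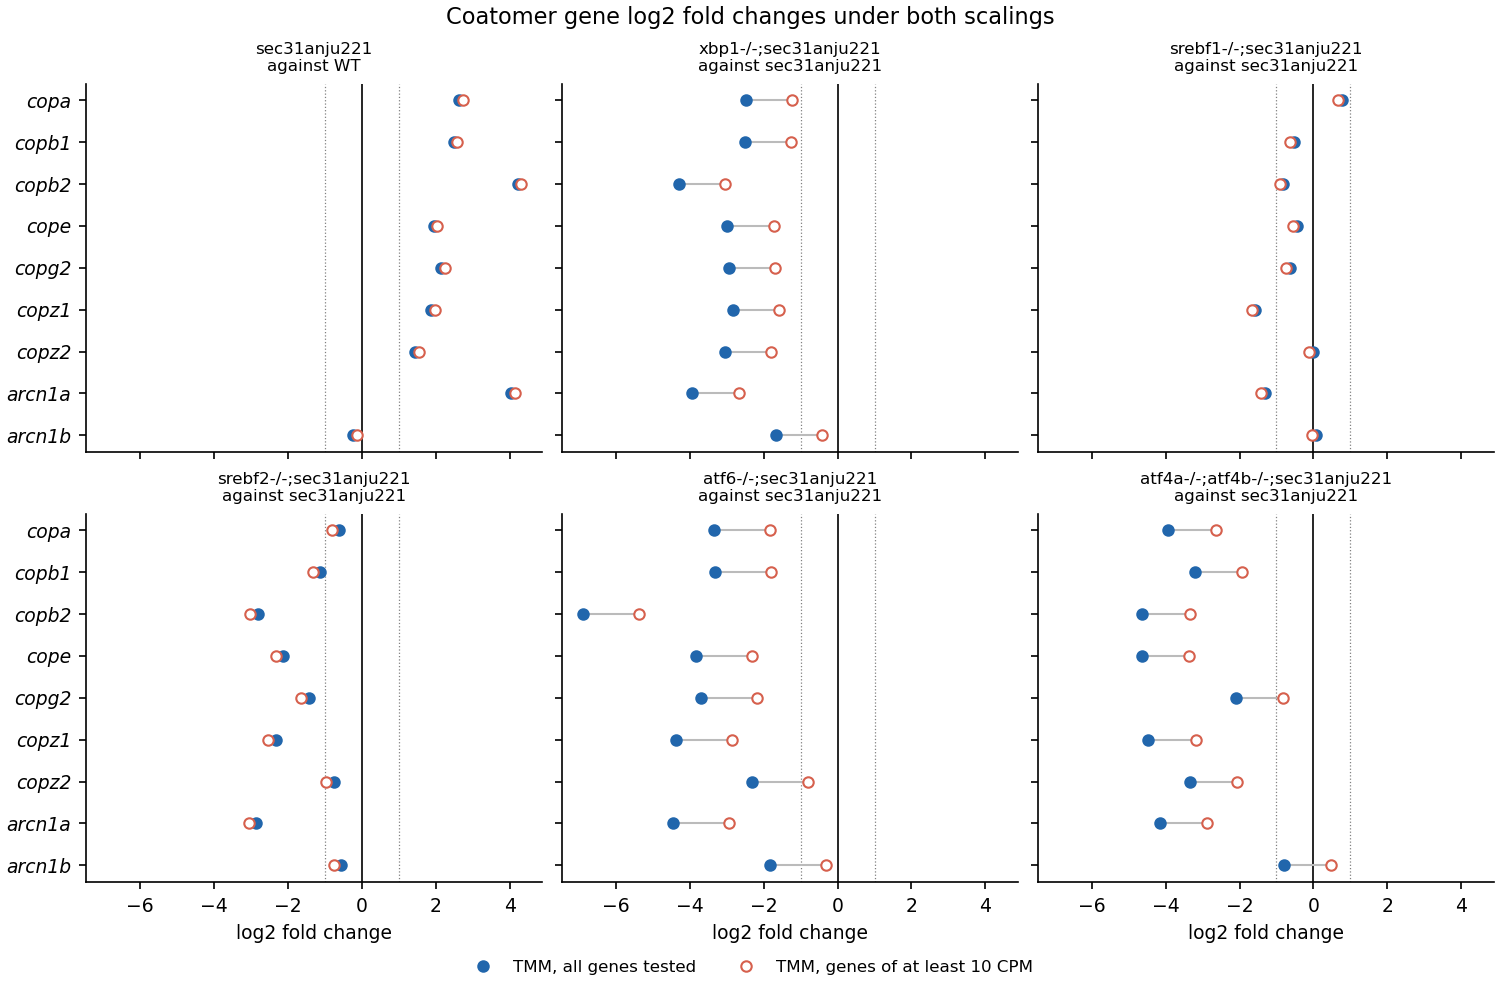
Log2 fold change of the 9 coatomer genes in the 6 comparisons, with scaling factors from all genes tested (filled points) and from the genes of at least 10 CPM (open points), and dotted lines at 2-fold. The 2 scalings nearly coincide in the 3 comparisons of sec31anju221, srebf1 and srebf2 and lie more than 1 log2 unit apart in the xbp1, atf6 and atf4a/b comparisons.

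In the *atf6* line all 9 genes were called lower than in *sec31anju221*, with a median log2 fold change of -3.70. The background was 21.9% of all genes tested but 67.9% of the genes of at least 10 CPM. Under the second scaling 7 members were called lower, against 19.9% of those genes, and the median was -2.18. *copz2* (-2.33 and -0.81 under the 2 scalings) and *arcn1b* (-1.83 and -0.31) were the members that lost the call. In rank, which depends little on scaling, 7 of the 9 were among the 520 lowest of the 5200 genes.

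*copb2* fell furthest in the *atf6* line. Its level was 5.99, 7.87 and 7.89 CPM there, against 858 to 875 CPM in *sec31anju221*, with a log2 fold change of -6.90 (-5.38 under the second scaling) and rank 16 from the lowest. It was also below the 45.9 to 47.5 CPM of WT, by a log2 difference of -2.69 (-1.06 under the second scaling). *arcn1a* was at 7.29, 7.03 and 8.49 CPM (log2 fold change -4.47 and -2.95, rank 106) and *copz1* at 107, 110 and 109 CPM (-4.37 and -2.85, rank 115).

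The other members of the *atf6* line fell less. *cope* was at 140 to 143 CPM (log2 fold change -3.84 and -2.32), *copg2* at 8.67 to 8.99 CPM (-3.70 and -2.18), *copa* at 13.8 to 17.3 CPM (-3.34 and -1.82) and *copb1* at 10.1 to 13.7 CPM (-3.32 and -1.80). The range over the 9 genes, 5.07 on the log2 scale, was the widest of the 6 comparisons.

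In the libraries labelled *atf4a/b*, 8 members were called lower than in *sec31anju221* and the median log2 fold change was -3.93. The background was 20.9% of all genes tested and 58.3% of the genes of at least 10 CPM. Under the second scaling 7 members were called lower, against 23.6% of those genes, with a median of -2.65. Of the 9 members, 6 were among the 520 lowest genes.

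The epsilon, zeta and beta-prime genes led in the libraries labelled *atf4a/b*. *cope* was at 76.2, 84.9 and 81.1 CPM (log2 fold change -4.65 and -3.36 under the 2 scalings, rank 144 from the lowest). *copb2* was at 36.8, 34.4 and 33.8 CPM (-4.63 and -3.35, rank 147) and *copz1* at 103, 99.1 and 100.7 CPM (-4.48 and -3.19, rank 174). *copb2* thus stood far higher here than in the *atf6* line, whereas *cope* and *copz1* were lower here than there. The *arcn1a* level of 9.26 to 9.72 CPM (-4.16 and -2.87) and the *copa* level of 9.45 to 11.1 CPM (-3.93 and -2.65) came next.

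*copz2* (6.24 to 6.94 CPM, log2 fold change -3.35 and -2.06) and *copb1* (12.2 to 13.0 CPM, -3.22 and -1.93) were also called under both scalings. *copg2* was not, at 27.8, 29.2 and 23.9 CPM (-2.10 and -0.81). The sign for *arcn1b*, at 46.6, 48.3 and 41.5 CPM, turned with the scaling, from -0.81 to 0.48, so no direction can be given for it.

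In the *xbp1* line all 9 members were called lower than in *sec31anju221* (median log2 fold change -2.95), with a background of 18.8% of all genes tested and 60.6% of the genes of at least 10 CPM. Under the second scaling 8 were called lower, against 12.3% of those genes, and the median was -1.70. *copb2* was at 44.8, 44.7 and 43.3 CPM (log2 fold change -4.29 and -3.04, rank 46 from the lowest). *arcn1a* was at 10.7, 10.4 and 11.98 CPM (-3.93 and -2.68, rank 74).

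The other 6 called under both scalings in the *xbp1* line lay in a narrow band. *copz2* (-3.06 and -1.81), *cope* (-2.99 and -1.73), *copg2* (-2.95 and -1.70), *copz1* (-2.84 and -1.59), *copb1* (-2.51 and -1.25) and *copa* (-2.48 and -1.23) spanned less than 1 log2 unit. *arcn1b*, at 25.7, 27.1 and 22.6 CPM, had the smallest fold change (-1.66 and -0.41) and was called under the first scaling only. Of the 9 genes, 8 were among the 520 lowest.

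The 2 Srebf lines differed from each other. In the *srebf2* line 6 members were called lower (median log2 fold change -1.42), against 34% of all genes tested and 17.2% of the genes of at least 10 CPM (21.8% under the second scaling, with 6 members again). *arcn1a* fell from 165 to 173 CPM to 22.0 to 24.5 CPM (-2.85, rank 105 from the lowest), *copb2* to 121, 122 and 129 CPM (-2.81, rank 114) and *copz1* to 441 to 455 CPM (-2.33, rank 185). *cope* (-2.12), *copg2* (-1.42) and *copb1* (-1.12) were the other members called. The call of *copb1* was lost, leaving 5, with DESeq2's size factors or DESeq2 itself (-0.94) and in a fit of only the 6 libraries compared (-0.90).

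*copz2* (-0.76), *copa* (-0.61) and *arcn1b* (-0.55) did not pass 2-fold in the *srebf2* line. *copa* remained at 99.4 to 106 CPM there, well above the 24.3 to 26.04 CPM of WT. Only 4 of the 9 were among the 520 lowest genes.

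In the *srebf1* line 2 members were called lower and none higher (median log2 fold change -0.53), against 21% of all genes tested and 12.8% of the genes of at least 10 CPM (15% under the second scaling, with 2 members again). The members called were *copz1*, at 781, 754 and 734 CPM (-1.57, rank 271 from the lowest), and *arcn1a*, at 68.9, 68.7 and 65.1 CPM (-1.32, rank 398). A share of 2 in 9 is not far from the background.

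*copa* went the other way in the *srebf1* line. Its level was 258, 273 and 270 CPM, against 161, 149 and 158 CPM in *sec31anju221* (log2 fold change 0.77, short of 2-fold), and it was the highest level of *copa* in any genotype. *copb2* (487 to 506 CPM, -0.81), *copg2* (-0.65), *copb1* (-0.53) and *cope* (-0.44) were lower by less than 2-fold. *copz2* (-0.015) and *arcn1b* (0.06) had libraries that overlapped those of *sec31anju221*.

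**Figure D3:**
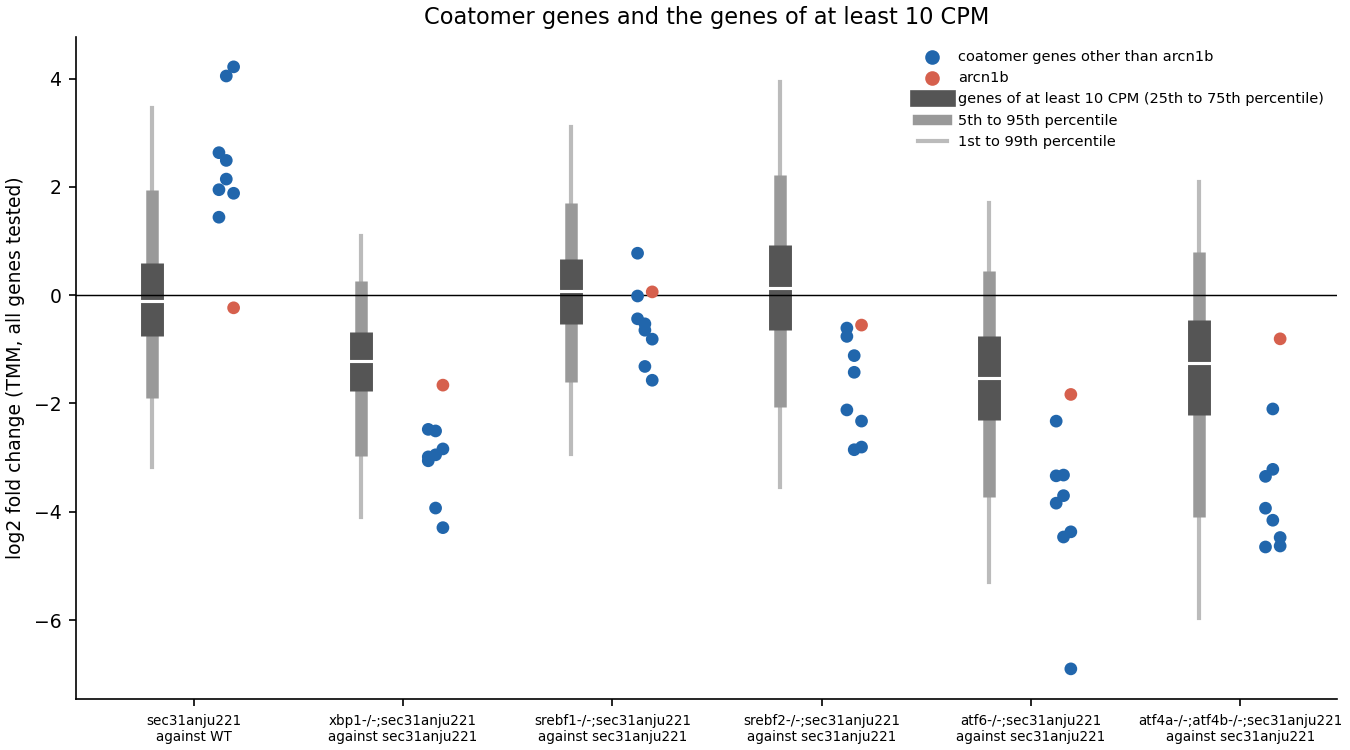
Log2 fold change (scaling factors from all genes tested) of the 9 coatomer genes (points, arcn1b in red) beside the 5200 genes of at least 10 CPM in the same comparison (bars from the 25th to the 75th, 5th to 95th and 1st to 99th percentile, white line at the median). In sec31anju221 against WT, 8 points lie above the 75th percentile of 0.60 and arcn1b lies close to the median of -0.11.

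Ordering the 7 genotypes by level gave the same genotype at the top for most subunits. By mean level under the first scaling *sec31anju221* was highest for 7 of the 9 genes, the *srebf1* line for *copa* and WT for *arcn1b*. For *copz2*, counted among the 7, the libraries of *sec31anju221* and the *srebf1* line overlapped. Under the second scaling the *atf4a/b* libraries stood 0.35 above WT in log2 level of *arcn1b*. The share of all genes that were highest in *sec31anju221* was not computed. The lowest mean was in the *atf6* line for *copb1*, *copb2*, *copg2*, *arcn1a* and *arcn1b*, and in the libraries labelled *atf4a/b* for *copa*, *cope*, *copz1* and *copz2*. For *copb1* and *arcn1b* the libraries of the *atf6* line overlapped those of the genotype next above. Of the 54 pairs of neighbours in these orders, 8 had overlapping libraries and so could not be ordered. The share of such pairs over all genes was not computed.

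The overlapping neighbours were few for each gene. For *copb1* they were WT with the *xbp1* line and *atf4a/b* with *atf6*. For *copg2* they were *atf4a/b* with WT, for *copz2* *sec31anju221* with *srebf1*, for *arcn1a* the *xbp1* line with WT and WT with *atf4a/b*, and for *arcn1b* *srebf1* with *sec31anju221* and the *xbp1* line with *atf6*. These orders, the lowest places included, hold for the first scaling, and the place of the *xbp1*, *atf6* and *atf4a/b* libraries among the others depends on it.

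That dependence was clearest against WT. In the *xbp1* line 2 members were above the WT level and 7 below under the first scaling, and 7 above and 2 below under the second, with median log2 differences of -0.80 and 0.55. In the *atf6* line 0 were above and 9 below, or 5 and 4, with medians of -1.56 and 0.06. In the libraries labelled *atf4a/b* 1 was above and 8 below, or 6 and 3, with medians of -1.04 and 0.35. The direction of the coatomer genes against WT is therefore not settled for these 3 sets. The same counts over all genes were not computed for any double mutant against WT, so these counts are not particular to the coatomer.

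Some members kept their side of WT under both scalings. *copb2* was lower than in WT in the *atf6* line, and *cope* (-2.70 and -1.31) and *copz1* (-2.59 and -1.21) were lower in the libraries labelled *atf4a/b*. Above WT under both scalings were *copa* (0.15 and 1.51) and *arcn1a* (0.12 and 1.47, with libraries overlapping WT under the first) in the *xbp1* line and *copg2* (0.04 and 1.43, likewise overlapping) in the libraries labelled *atf4a/b*. *copz1* was lower in the *atf6* line too (-2.49 and -0.87), as were *cope* (-1.89 and -0.27) and *arcn1b* (-2.07 and -0.45). Also below WT under both were *copz2* (-1.62 and -0.265) and *arcn1b* (-1.895 and -0.54) in the *xbp1* line. In the libraries labelled *atf4a/b* so was *copz2* (-1.91 and -0.52). In the *srebf1* line 8 members stayed above WT (median log2 difference 1.51) and in the *srebf2* line 6 did (median 0.72), where *cope* (-0.17), *copz1* (-0.44) and *arcn1b* (-0.79) were below. Without the share of all genes above WT in these lines, such counts cannot be told from a general shift of the libraries.

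The balance among the subunits does not depend on scaling, because the same factor enters every gene of a library. Each member's log2 level was set against the mean log2 level of the 9, and the change of that difference from WT was read. In *sec31anju221* *copb2* gained 1.93 and *arcn1a* gained 1.75 on the others, while *arcn1b* changed by -2.51 and *copz2* by -0.84. The other 5 moved by at most 0.40, so the inner and outer layers each held 1 gene that rose above its partners.

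The lines differed in which subunit stood out. In the *atf6* line *copb2* changed by -1.18 relative to WT, the only genotype in which it lost ground on the other subunits, while *arcn1a* gained 1.09 and *copz1* changed by -0.99. In the *srebf1* line *copa* (1.62) and *copb2* (1.62) gained and *copz1* (-1.47) and *arcn1b* (-1.96) lost. In the *srebf2* line *copa* gained 1.36, and *arcn1b* changed by -1.45 and *copz1* by -1.11.

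In the libraries labelled *atf4a/b* *copg2* gained 1.23 and *arcn1a* 1.09, while *cope* changed by -1.51 and *copz1* by -1.40. There *arcn1b* was close to its WT position, at 0.15. In the *xbp1* line no member moved by more than 1 except *arcn1b* (-1.21).

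**Figure D4:**
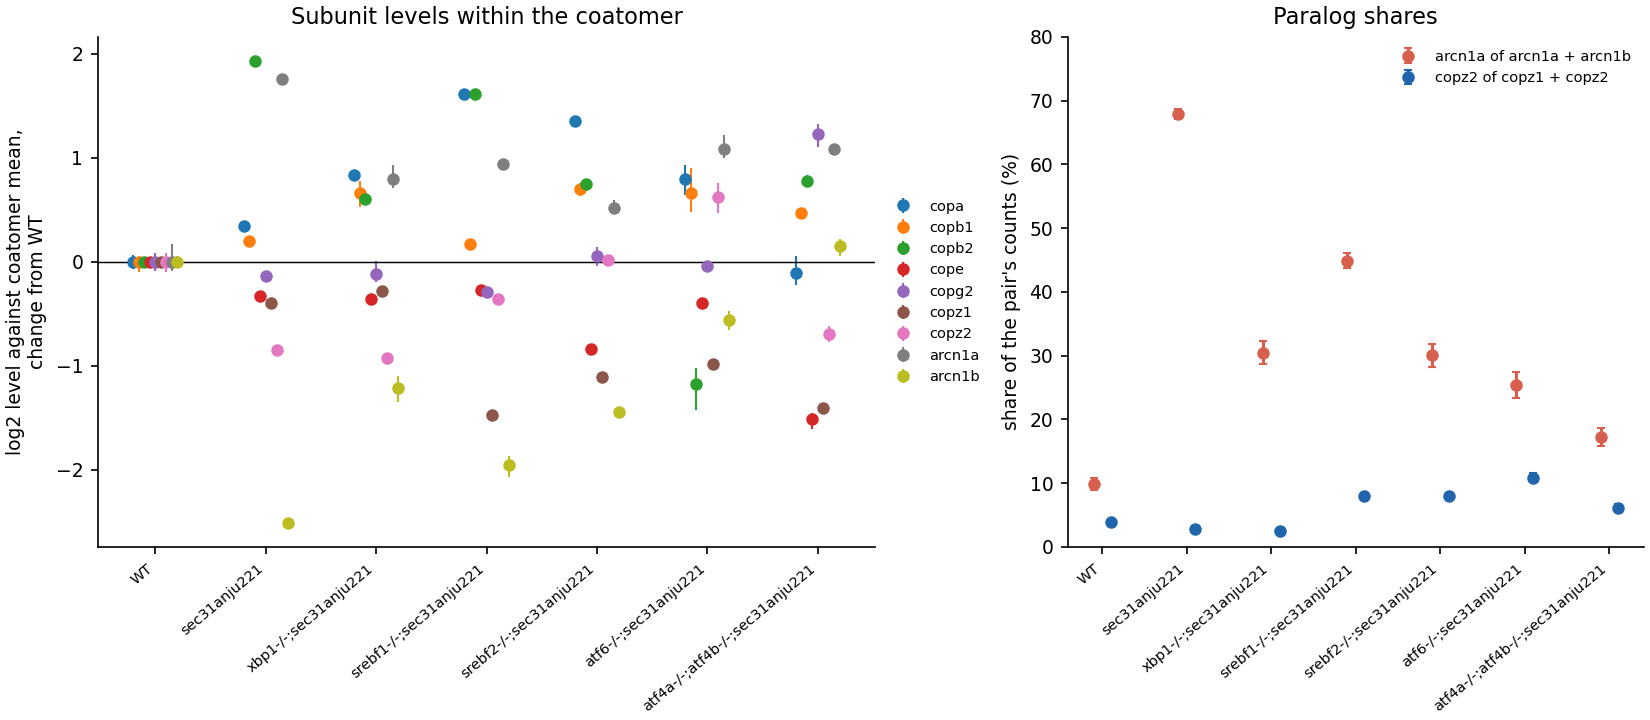
Left, log2 level of each coatomer gene minus the mean of the 9, as a change from WT, by genotype (mean of 3 libraries, bars from the lowest to the highest library). Right, arcn1a as a percentage of the counts of arcn1a and arcn1b, and copz2 of copz1 and copz2 (bars, exact 95% binomial intervals). arcn1a holds 9.81% of its pair in WT and 67.9% in sec31anju221.

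The delta subunit is encoded by 2 genes, and the share of each in the pair is likewise free of scaling. *arcn1a* gave 9.81% of the counts of *arcn1a* and *arcn1b* in WT (exact 95% binomial interval 8.84 to 10.8%) and 67.9% in *sec31anju221* (67.0 to 68.7%). The majority delta gene in the counts thus changed from *arcn1b* to *arcn1a*. Counts are not divided by gene length, so the shares compare genotypes rather than molecules of each transcript.

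In every double mutant the *arcn1a* share lay between the WT and *sec31anju221* values. It was 44.9% in the *srebf1* line (43.7 to 46.1%), 30.5% in the *xbp1* line (28.7 to 32.3%) and 30.0% in the *srebf2* line (28.2 to 31.9%). It was 25.4% in the *atf6* line (23.4 to 27.5%) and 17.2% in the libraries labelled *atf4a/b* (15.8 to 18.6%). The intervals of the *xbp1* and *srebf2* lines overlapped, and all these intervals cover counting error only. Single libraries ran from 27.7 to 34.6% in the *xbp1* line, 28.8 to 31.1% in the *srebf2* line and 23.6 to 28.4% in the *atf6* line. By library, the *xbp1* line therefore overlapped the *atf6* line as well.

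The zeta pair behaved differently. *copz2* gave 3.84% of the counts of the pair in WT (3.59 to 4.11%) and 2.86% in *sec31anju221* (2.76 to 2.96%), so *copz1* held nearly all of it in both. The *copz2* share was higher than in WT in the *atf6* (10.8%), *srebf2* (8.01%), *srebf1* (7.96%) and *atf4a/b* (6.04%) libraries and lower in the *xbp1* line (2.46%).

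Profiles over the 7 genotypes were also compared among the members, as a description over genotypes that share library scaling. *copb1* lay closest to the mean of the other members, with a root mean square difference of 0.30 on the log2 scale and r = 0.98. *copb2* (1.07) and *arcn1b* (1.04) lay farthest, with r = 0.95 for *copb2*, whose swings were wider, and r = 0.72 for *arcn1b*.

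Outside the coatomer, profiles were searched among the genes of at least 10 CPM, and genes without a symbol or with a clone name were passed over. The 5 nearest to the coatomer mean were *SEC23IP* (root mean square difference 0.21 on the log2 scale), *NDUFB6* (0.23), *MPC2* (0.24), *NDUFA1* (0.27) and *sar1b* (0.27). Their r was 0.98 to 0.99 over the 7 genotypes (symbols as in the gene name table). SEC23IP binds the COPII subunit Sec23 at ER exit sites, and Sar1b is the GTPase that starts COPII coat assembly. NDUFB6 and NDUFA1 are subunits of mitochondrial complex I, and MPC2 is a subunit of the mitochondrial pyruvate carrier. *SEC23IP* had 15.2 CPM in WT, 79.4 in *sec31anju221* and 6.94 in the *atf6* line, and *sar1b* had 68.8, 328 and 22.0 CPM.

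**Figure D5:**
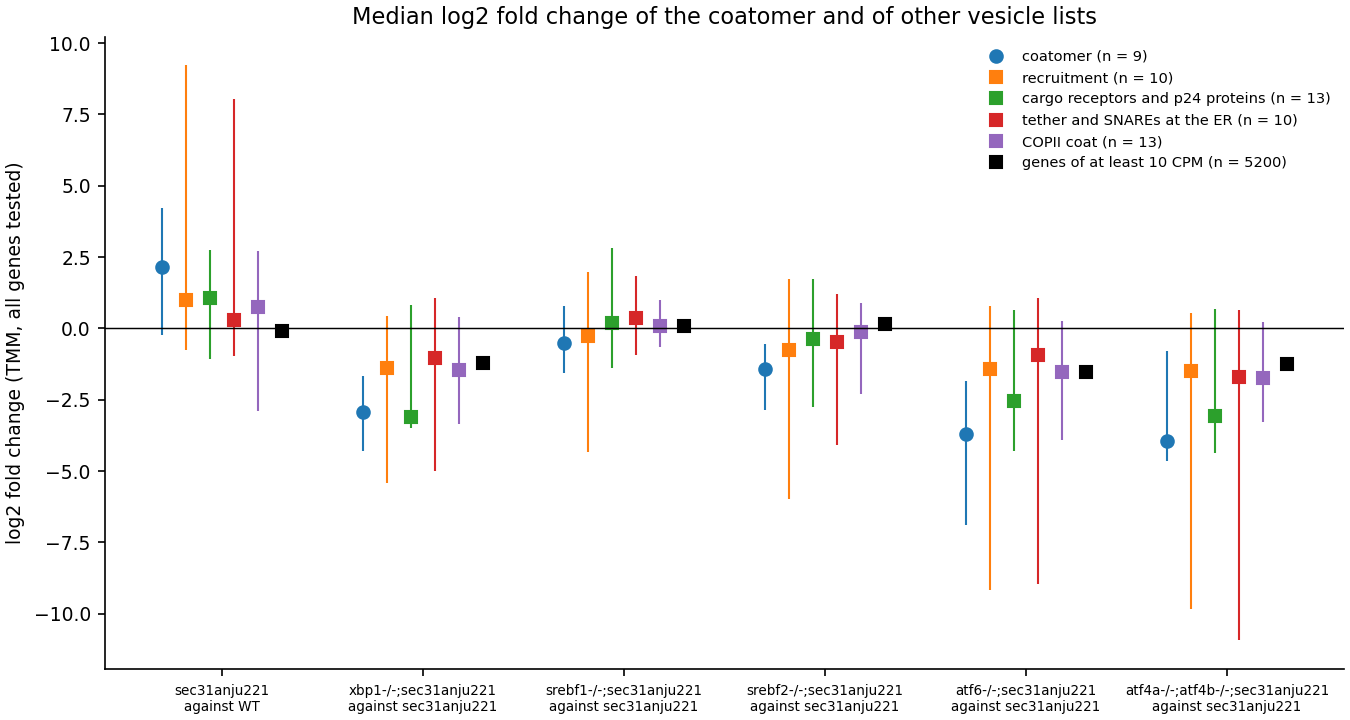
Median log2 fold change (symbols) and range over genes (lines) of the coatomer and 4 other lists of vesicle genes in the 6 comparisons, scaling factors from all genes tested, with the median of the 5200 genes of at least 10 CPM in black. The coatomer median of 2.14 in sec31anju221 against WT lies above the medians of the other lists, which run from 0.28 to 1.08.

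Genes that work with the coat were described by list. In *sec31anju221* against WT the median log2 fold change was 0.98 over 10 genes of coat recruitment (Arf GTPases, their exchange factor and GTPase-activating proteins), 1.08 over 13 cargo receptors and p24 proteins, 0.28 over 10 genes of the ER tether and SNAREs that receive COPI vesicles, and 0.74 over 13 COPII coat genes. The counts called higher were 5, 7, 3 and 4, beside the 21.4% of all genes tested, so that 3 of 10 and 4 of 13 were not far from the background. Under the second scaling they were 6, 7, 3 and 6, beside 18% of the genes of at least 10 CPM, so the COPII count depended on scaling. The recruitment calls included a gene below 10 CPM whose WT and *sec31anju221* libraries overlapped. The counts called lower were 0, 1, 0 and 1, beside 14% of all genes tested and 18.1% of the genes of at least 10 CPM. Under the second scaling they were 0, 0, 0 and 1, beside 16.1% of those genes. In each list most members therefore stayed behind the coatomer median of 2.14.

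The highest genes of the recruitment list and of the tether and SNARE list stood far above their medians. *arf4b*, an Arf GTPase, had 0.985, 1.79 and 1.61 CPM in WT and 880, 866 and 866 CPM in *sec31anju221* (log2 fold change 9.21). *sec22ba*, which encodes a Sec22b SNARE that cycles between ER and Golgi, had 19.96, 14.7 and 20.2 CPM and then 4867, 4877 and 4804 CPM (8.05). Against *sec31anju221*, *arf4b* was at -9.83 (-8.55 under the second scaling) in the libraries labelled *atf4a/b*, -9.16 (-7.65) in the *atf6* line, -3.94 (-2.69) in the *xbp1* line, -3.19 in the *srebf2* line and -0.80 in the *srebf1* line. *sec22ba* was at -10.93 (-9.64), -8.96 (-7.44), -5.00 (-3.75), -4.09 and -0.93 in the same order, so neither was low in the *atf6* line alone. *arf4a*, the paralog of *arf4b*, was also higher in *sec31anju221* than in WT (log2 fold change 5.19, rank 16 of 5200). In the same order it was at -9.06 (-7.78), -9.08 (-7.56), -5.42 (-4.16), -5.97 and -4.35.

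*kdelr2b*, the receptor that retrieves KDEL-tailed chaperones, was the highest of the cargo receptors (20.5 CPM in WT, 138 in *sec31anju221*, log2 fold change 2.75), and *sec13* the highest of the COPII coat (2.24 and 14.8 CPM, 2.72). The lowest members were *arfgap2* (-0.76), a GTPase-activating protein for Arf1, *tmed1b* (-1.09), a p24 protein, *rint1* (-0.95), a subunit of the ER tether, and *sec31a* (-2.88), the disrupted gene.

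In 4 of the 5 double mutants the coatomer median was the lowest of the 5 lists, with the *xbp1* line as the exception. These are not 4 separate results, because all share the *sec31anju221* libraries, where the coatomer median against WT was the highest of the lists. Under the first scaling, in the *atf6* line the coatomer median of -3.70 was set against -1.43 for recruitment, -2.54 for cargo receptors, -0.92 for tether and SNAREs and -1.53 for the COPII coat. In the *xbp1* line the cargo receptors were as low (-3.12 against -2.95 for the coatomer), and the others lay between -1.06 and -1.45. In the libraries labelled *atf4a/b* the coatomer median of -3.93 compared with -3.08 for the cargo receptors and -1.50 to -1.74 for the rest.

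In the *srebf2* line the medians of the other lists were -0.77, -0.38, -0.48 and -0.13 against -1.42 for the coatomer, and in the *srebf1* line -0.27, 0.20, 0.35 and 0.08 against -0.53. Differences between these medians do not depend on scaling, but the lists differ in level. All 9 coatomer genes averaged 10 CPM or more, while each other list held genes below that. The median over all genes tested and over the genes of at least 10 CPM was 0.25 and -1.52 in the *atf6* line. It was 0.22 and -1.255 (*atf4a/b*), 0.21 and -1.21 (*xbp1*), -0.43 and 0.14 (*srebf2*) and -0.12 and 0.07 (*srebf1*). The part of level was not tested, and the lists were not tested against each other.

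Markers of other cells moved with some of these results, and their part was not tested. The summed level of 4 intestinal markers was 1661 to 1679 CPM in WT, 3250 to 3286 in *sec31anju221*, 2913 to 2925 in the *srebf1* line, 561 to 588 in the *xbp1* and *srebf2* lines, 76.4 to 85.6 in the *atf4a/b* libraries and 32.5 to 34.8 in the *atf6* line. In WT and *sec31anju221* nearly all of that sum was *fabp2*, with a log2 fold change of 0.97 in *sec31anju221* against WT. *vil1* (-0.14), *cdx1b* (0.28) and *fabp6* (-0.12), of which *fabp6* was at 0 in all *srebf2* libraries, had overlapping WT and *sec31anju221* libraries. The sums do not describe every member. Against *sec31anju221*, 3 of the 4 were higher in the *xbp1* line (median log2 fold change 0.30, and 1.53 under the second scaling). In the *atf4a/b* libraries 3 were higher (0.52 and 1.79), and in the *atf6* line 2 were (-0.705 and 0.73). All 4 were lower in the *srebf1* and *srebf2* lines.

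Of the other marker lists, 8 exocrine pancreas genes summed to 1964 to 1985 CPM in WT, 95.2 to 99.04 in *sec31anju221* and 14.6 to 752 in the double mutants. Biliary markers were at 2081 to 2100 CPM in WT, 926 to 959 in *sec31anju221*, 2713 to 2736 in the *srebf2* line and 534 to 1136 in the other double mutants. Erythrocyte (7.20 to 153 CPM), stellate (32.3 to 75.2 CPM), endothelial (15 to 40.3 CPM) and leukocyte (0.639 to 4.38 CPM) sums were low in every genotype.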

How the data were processed

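Per the labels and the methods of the study, livers were dissected at 7 dpf, and paired reads from a low-input kit were aligned to GRCz11 with HISAT2 2.1.0. The authors deposited raw counts per Ensembl gene for each library, made with featureCounts 1.6.0. The annotation release, strand setting and treatment of multi-mapping reads are not given in the sources used here, so reads of the paralogs *arcn1a* and *arcn1b* may be uncertain.

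Genes were matched by symbol and by shared neighbouring genes. *arcn1a* and *arcn1b* share a symbol in the name table and were told apart by neighbours alone (25 and 19 shared, next candidate 3). Counts were fitted with edgeR 4.0.16 (quasi-likelihood, TMM factors, genotype as the term, all 21 libraries), with genes of a scaled total of at least 10 counts kept. Log2 levels used a prior count of 2. No p-value is given, since the libraries of a genotype were counted as 1 sample. Scripts ran in R 4.3.3 and Python 3.11.15.

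Alternatives were DESeq2 1.42.0, other scalings and filters, the replicate number as a block, and libraries left out or summed. The members, lists and tests were chosen with earlier results of these data known. Named genes are the 9 members, the highest and lowest gene of each list in *sec31anju221* against WT, and the 5 genes with the nearest profile. Those 5 were taken from the genes of at least 10 CPM that have a symbol other than a clone name. *arf4a* was added as the paralog of *arf4b*. The disrupted genes and marker genes are given as checks. Genes of the lists without a clear match were left out. A planned search of promoter motifs was not run. Libraries with the same replicate number did not deviate together.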

Additional observations from a re-analysis of the deposited data

How the results depend on the processing

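The scaling moved values most. With factors from the genes of at least 10 CPM the median log2 fold change of the coatomer genes was -1.70 (*xbp1*), -0.63 (*srebf1*), -1.63 (*srebf2*), -2.18 (*atf6*) and -2.65 (*atf4a/b*). Upper-quartile factors gave -2.71 (*xbp1*), -3.43 (*atf6*) and -3.64 (*atf4a/b*). DESeq2's size factors gave -0.48 (*srebf1*), -1.25 (*srebf2*) and -3.61 (*atf6*), and DESeq2 itself -0.48, -1.25 and -3.61. Fitting only the 6 libraries compared gave -0.45 (*srebf1*) and -1.21 (*srebf2*), and summing the libraries gave -3.04 (*xbp1*) and -3.81 (*atf6*). A 1.5-fold threshold called 4 coatomer genes lower in the *srebf1* line in place of 2. In the *srebf2* line DESeq2's size factors, DESeq2 and the 6 libraries alone called 5 lower in place of 6. The other 54 medians, and 459 of 648 log2 fold changes of single members, moved by less than the SD between libraries. These tallies are no measure of robustness, since they include settings that could hardly move a value. Such settings were no filter and only the genes of at least 10 CPM (largest shift 0.001 each), the replicate block (0.002) and a replicate number left out. The cause of the moves was not tested.

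Leaving out each replicate number in turn gave medians of 2.11 to 2.19 (*sec31anju221* against WT), -2.98 to -2.90 (*xbp1*), -0.56 to -0.51 (*srebf1*), -1.48 to -1.38 (*srebf2*), -3.73 to -3.67 (*atf6*) and -3.98 to -3.86 (*atf4a/b*). Signs changed for *copz2* in the *srebf1* line (DESeq2's size factors, DESeq2, the 6 libraries alone, and without replicate 1) and for *arcn1b* in the *srebf1* line and *atf4a/b* libraries (factors from the genes of at least 10 CPM). For the shares, leaving out each replicate number was the only alternative. All 42 stayed within a tolerance set from the SD between libraries or the binomial interval, whichever was larger. Leaving out 1 of 3 such similar libraries can hardly exceed that tolerance, so this result is no check of the shares. For the levels against the coatomer mean only the prior count was changed, to 0.5 or 5. Of these, 125 of 126 stayed within a tolerance set from the range of the libraries, with a small fixed minimum.

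With the replicate number as a block the median in *sec31anju221* against WT was 2.14, and no log2 fold change of a member moved by more than 0.002. Deviations of same-numbered libraries correlated at -0.097 to 0.068 over 63 pairs. Since the libraries of a genotype differed by little more than read sampling, these values cannot show whether the numbers pair the samples. *arcn1a* had 106 to 126 counts per WT library.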
